A study of Mus musculus with 2 samples.

Results

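Peg3 and 9 other imprinted genes, namely Igf2, H19, Meg3, Cdkn1c, Plagl1, Zim1, Usp29, Mest and Dlk1, were described in RNA-seq libraries of mouse mesenteric artery exposed to 5 or 60 mM K+. Peg3 was chosen because earlier work on these same 2 libraries placed it among the genes lower in 60 mM K+, and the other 9 were named with those results known. The value of Peg3 is therefore given as a description and supports nothing by itself. The 10 genes are 10 of the 55573 genes in the deposited count table, and 9 of them reached 10 reads over both libraries.

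Arteries came from wild-type C57BL/6 mice aged 10 weeks, and each library pooled the tissue of 2 mice. One library was made from arteries held for 60 min in 5 mM K+ (the control) and the other from arteries held for 60 min in 60 mM K+, which depolarizes the smooth muscle membrane. The study's methods also describe control tissue taken from the distal side of the vessels before the remaining tissue met 60 mM K+, and which procedure gave the sequenced arteries is not stated. Potassium, vessel segment, time and the mice in each pool cannot be told apart. With 1 library per condition there was no replicate and no test was run. Intervals below are 95% exact intervals for counting error only, and a gene is said to lie below or above 0 where its interval does so. In bulk tissue, fewer cells of a type and less RNA per cell cannot be told apart.

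An imprinted gene is transcribed mainly from the copy inherited from 1 parent, because the copies carry different DNA methylation at a control region set in the egg or the sperm. Imprinted genes lie in clusters, and a single control region can set paternal expression of some genes and maternal expression of their neighbours. Many act on fetal growth and are turned down in most tissues after birth. Peg3 encodes a large zinc finger protein that binds DNA and is active from the paternal copy. The mice were inbred and the files hold 1 count per gene, so the parental copies could not be told apart and only the summed transcript is described.

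Depolarization of smooth muscle lets calcium in through voltage-gated channels, and the transcription factor CREB, which binds the cAMP response element (CRE), is a known target of the kinases that calcium turns on. The promoters of the members were therefore searched on both strands for the full CRE, TGACGTCA, and for its short form, TGACG, which the full site contains on each strand. RefSeq promoter windows of GRCm38.p6, from 250 bases before to 50 bases after a start, matched 8 members (all but H19 and Cdkn1c) with 14 windows in all. The full CRE was found in windows of 3 members, Peg3, Usp29 and Meg3. It was in 588 of 32851 promoters in the table (1.79%), or 549 of 27025 genes (2.03%). Each site is printed with 11 bases before and after it, read 5′ to 3′ along Peg3 and along Meg3, with the full CRE in capitals.
Peg3: actgactccgtTGACGTCAactccgtgcct
Meg3: gcagaatgcgcTGACGTCAaagaccacccc

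The Peg3 site is at chr7:6730590-6730597 in GRCm38.p6, read on the minus strand, and begins 178 bases upstream of the Peg3 start. Peg3 and Usp29 are transcribed away from each other and their windows share 263 bases, so the same site also begins 7 bases after the Usp29 start and counts as 1 site, not 2. The Meg3 site is at chr12:109540939-109540946 on the plus strand and begins 57 bases upstream of the first listed Meg3 start. The 250 bases upstream of that start, chr12:109540746-109540995, are shown because Meg3 had the most reads of the members and the site stands in its promoter, again with the CRE in capitals.
Meg3 upstream: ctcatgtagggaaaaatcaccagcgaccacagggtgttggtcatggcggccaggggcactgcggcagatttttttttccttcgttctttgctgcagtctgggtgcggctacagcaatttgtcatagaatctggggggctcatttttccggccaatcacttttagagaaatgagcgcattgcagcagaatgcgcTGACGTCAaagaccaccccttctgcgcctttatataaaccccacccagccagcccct

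The short form alone was found near starts of Igf2 and Dlk1, which brought the members with a match to 5. It was in 6837 of the promoters in the table (20.8%), or 23.0% of the genes. The Igf2 match at chr7:142658989-142658993 on the minus strand begins 189 bases upstream of a start, and the Dlk1 match at chr12:109452717-109452721 on the plus strand begins 106 bases upstream. Another Igf2 match begins 6 bases after a different start. The upstream matches are printed with the short form in capitals.
Igf2: cgtggccggggTGACGcctccattcct
Dlk1: gggggggggggTGACGcatgatgtcgt

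Members with a match lay on both sides of 0 in the read counts given below. Peg3, Meg3 and Igf2 were lower in 60 mM K+, Dlk1 was higher, and Usp29 was not detected at this depth. A match of letters is a description and says nothing about whether a factor bound there.

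**Figure D1:**
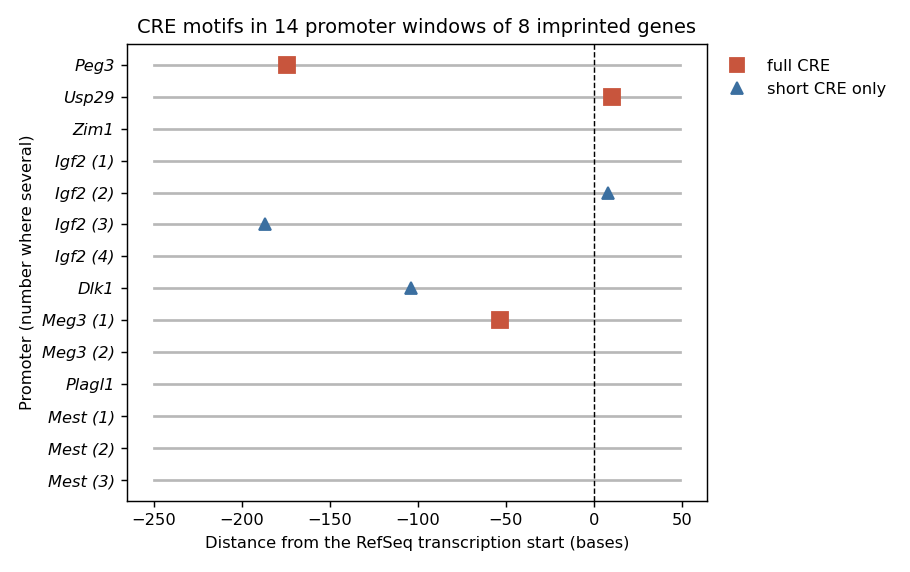
Position of the full and short CRE matches, in bases from the transcription start on the x axis, in the promoter windows of the 8 members with a RefSeq entry. The full CRE appears in Peg3, Usp29 and Meg3, and the Peg3 and Usp29 marks are the same site seen from 2 starts.

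The libraries held 10480918 reads assigned to genes in 5 mM K+ and 11289598 in 60 mM K+, and 19735 and 18995 genes had reads. Fold-changes are log2(60 mM K+/5 mM K+) after TMM scaling, and levels of different genes are compared only as the deposited FPKM, which divides reads by gene length and by the library total. The summed level of 10 smooth muscle markers was 39420 CPM (reads scaled to a common library total) in 5 mM K+ and 43140 in 60 mM K+, so markers of the labelled tissue were abundant in both libraries.

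Peg3 lies at chromosome 7, 6656603 to 6683132 (mm9, minus strand). It had 642 reads in 5 mM K+ and 282 in 60 mM K+, a log2(fold-change) of -1.08 with a counting interval of -1.29 to -0.88, or 2.12-fold lower. Its level was 14.0 FPKM in 5 mM K+ and 5.71 in 60 mM K+. Among genes with any signal Peg3 thus stood at the 67.8th percentile in 5 mM K+ and at the 54.4th in 60 mM K+. These are the values for which Peg3 was picked. With the trend of fold-change on gene length removed, the log2(fold-change) was -0.97.

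Zim1, a maternally expressed zinc finger gene, lies 7.44 kb from Peg3 on the same strand (6628154 to 6649161). It had 50 reads in 5 mM K+ and 9 in 60 mM K+, a log2(fold-change) of -2.37 (-3.58 to -1.33). Usp29, a paternally expressed ubiquitin protease gene that shares its promoter region with Peg3, had 0 reads in 5 mM K+ and 1 in 60 mM K+. Both counts are under the 3 reads that a count of 0 allows, so no fold is given. The mm9 gene model places Usp29 at 6913871 to 6916480, as a single exon 231 kb from Peg3, so reads from its first exon beside Peg3 could not have been counted to it under that model. The deposited FPKM divides Usp29 by 3.19 kb, while that model is 2.61 kb long. The model behind the deposited counts may thus differ and is not known.

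Of the 3 members in this cluster, Peg3 and Zim1 thus had fewer reads in 60 mM K+ and Usp29 could not be compared. Imprinted genes Zim2, Zim3 and Zfp264 of the same cluster were not analysed here.

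**Figure D2:**
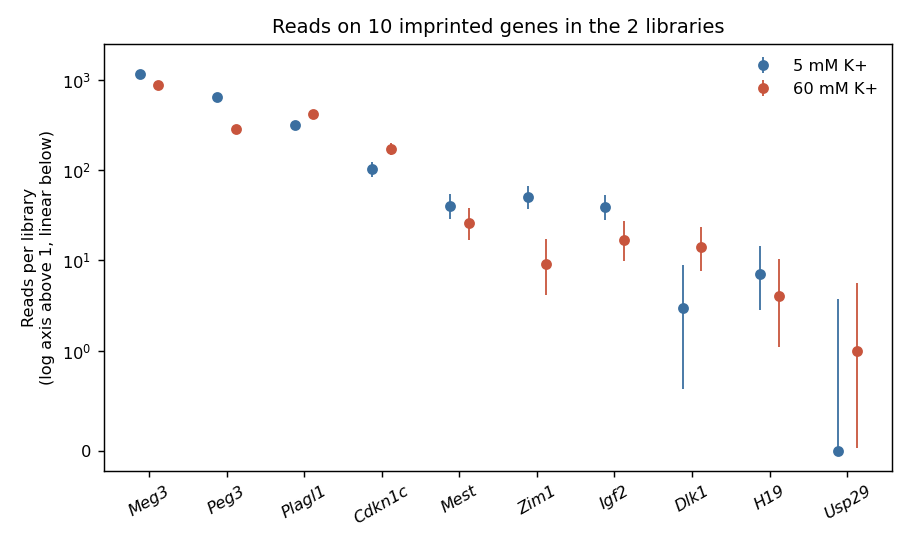
Reads per library of each of the 10 members on a log axis, in 5 mM K+ and 60 mM K+, with 95% exact Poisson intervals as bars. Peg3 (642 and 282), Zim1 (50 and 9) and Igf2 (39 and 17) are lower in 60 mM K+, and Cdkn1c (102 and 170), Plagl1 (313 and 422) and Dlk1 (3 and 14) are higher.

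The surroundings of Peg3 hold a large family of zinc finger genes. Within 500 kb of the Zim1 to Usp29 stretch, 11 other genes reached 10 reads, and their median log2(fold-change) was -0.29. Of these, 4 lay below 0 and 1 above, beside 20.3% and 25.0% of all genes, and all 5 are zinc finger genes. Zfp28 had 85 reads in 5 mM K+ and 35 in 60 mM K+ (-1.18, interval -1.79 to -0.59). Zfp583 had 19 and 6 reads, Zfp78 had 22 and 7, and Zfp418 had 15 and 1. Zfp954 went the other way, with 83 reads in 5 mM K+ and 180 in 60 mM K+ (1.22). Zfp444 (177 and 152 reads), Zfp667 (84 and 74), Zfp772 (72 and 55) and Zfp773 (6 and 5) held 0. Clcn4-2, a chloride and proton exchanger gene and the most abundant of the neighbours, had 715 and 696 reads (0.06).

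Lower counts were thus seen in some of the zinc finger genes beside Peg3, and also in some elsewhere. Over all genes whose symbol begins with Zfp, a set chosen after the values were seen, 44 of 320 with 10 reads or more lay below -1 (13.8%) and 9 above 1 (2.81%), beside 5.86% and 5.54% of all genes. Among those with at least 100 reads, 8 of 218 lay below -1 (3.67%), beside 87 of 10738 genes of any name (0.810%) and 15 of 784 genes longer than 4 kb (1.91%). At the same depth 40.8% of the Zfp genes and 41.3% of the genes longer than 4 kb had an interval below 0, beside 22.8% of all genes, and the part of gene length in the Zfp values was not tested.

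**Figure D3:**
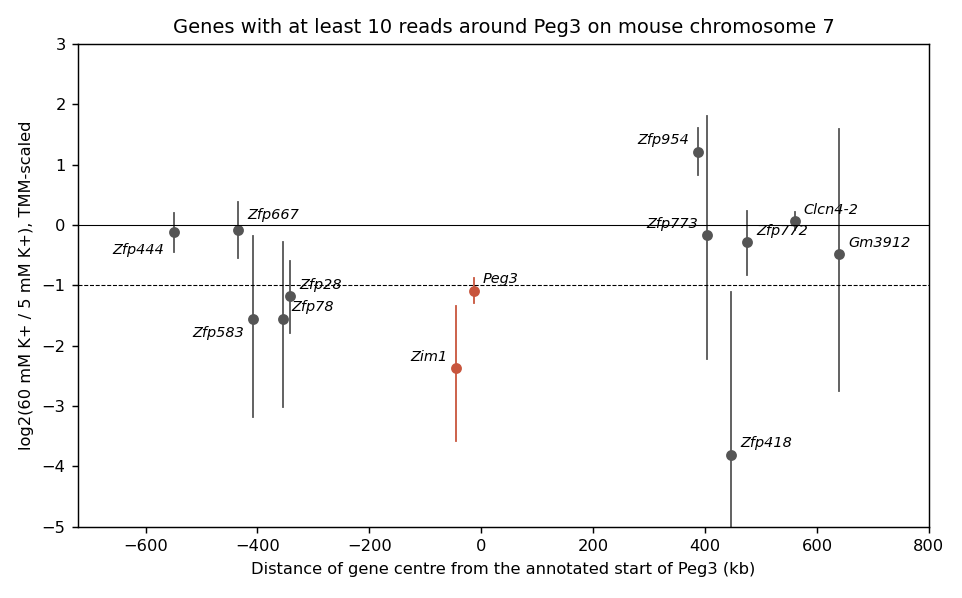
Log2(60 mM K+/5 mM K+) with 95% counting intervals for genes around Peg3, by distance from the Peg3 start in kb. Peg3 (-1.08), Zim1 (-2.37), Zfp28, Zfp78, Zfp583 and Zfp418 lie below 0 and Zfp954 above, and the lower end of the Zfp418 interval runs off the axis.

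Igf2 and H19 share a control region and enhancers on distal chromosome 7, with Igf2 active from the paternal copy and H19 from the maternal copy. Igf2, a fetal growth factor (149836673 to 149852721, minus strand), had 39 reads in 5 mM K+ and 17 in 60 mM K+, a log2(fold-change) of -1.10 (-2.01 to -0.24). Its antisense neighbour Igf2as had 3 and 2 reads, and since the library kit does not mark strand, reads of overlapping genes cannot be assigned between them. H19, a noncoding RNA and the host of miR-675 (149761434 to 149764048, minus strand), had 7 and 4 reads. Its interval, -2.93 to 1.27, held 0, so a difference was not detectable at this depth. The level in 5 and 60 mM K+ was 1.86 and 0.753 FPKM for Igf2 and 0.537 and 0.285 FPKM for H19.

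Around Igf2 and H19, 12 other genes within 500 kb reached 10 reads, none lay below 0 and 6 lay above, with a median of 0.32. The shares of all genes were 20.3% below and 25.0% above. Lsp1, an actin-binding protein gene of leukocytes and endothelium, had 427 reads in 5 mM K+ and 651 in 60 mM K+ (0.71). Ctsd, a lysosomal protease gene, had 2286 and 2624 (0.30). Igf2 thus lay below 0 among neighbours of which none did so.

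Cdkn1c encodes p57Kip2, an inhibitor of cyclin-dependent kinases, and is active from the maternal copy. It lies 792 kb from Igf2 (150644255 to 150646955, minus strand), in a cluster with its own control region. It had 102 reads in 5 mM K+ and 170 in 60 mM K+, a log2(fold-change) of 0.84 (0.48 to 1.21), or 1.79-fold higher. Other maternally expressed genes of this cluster had few reads. Slc22a18, a membrane transporter gene, had 12 and 32 reads (1.52, interval 0.52 to 2.61), Kcnq1, a potassium channel gene, had 20 and 39 (1.06, interval 0.25 to 1.92), and Phlda2, a placental growth gene, had 0 and 1.

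Of the genes at the edge of the cluster, Cd81 had 2944 and 2667 reads (-0.04), Nap1l4 had 1276 and 1228 (0.05), and both intervals held 0. Osbpl5 had 1311 and 1040 (-0.23, interval -0.35 to -0.11), and Tnfrsf23, named after its values were seen, had 40 and 57 (0.61, interval 0.0039 to 1.23). Tspan32 (5 and 5 reads) held 0 with a wide interval, -2.02 to 2.22. Ascl2 (1 and 2 reads), Th (0 and 0) and Ins2 (3 and 2), which lies beside Igf2, did not reach 10 reads and were not compared. Of 15 other genes within 500 kb of Cdkn1c with 10 reads, 1 lay below 0 and 5 above, beside 20.3% and 25.0% of all genes. This window overlaps that of Igf2 and H19, and genes such as Cd81 and Kcnq1 are counted in both.

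Among the inhibitors of the same enzyme family, 4 of 5 genes in the table reached 10 reads, 2 lay above 0 and 0 below. The shares of all genes were 25.0% above and 20.3% below, and with 4 genes nothing is read from that count. Cdkn1a, which encodes p21 and is not imprinted, had 3259 reads in 5 mM K+ and 7790 in 60 mM K+ (1.36, interval 1.30 to 1.42). The difference of Cdkn1c was thus smaller than that of its more abundant relative in the same libraries.

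Meg3 and Dlk1 belong to a cluster on chromosome 12 in which the noncoding RNA Meg3 is maternal and Dlk1 is paternal. Meg3 (110779211 to 110809936, mm9, plus strand) had 1160 reads in 5 mM K+ and 875 in 60 mM K+, a log2(fold-change) of -0.31 (-0.43 to -0.18). It was the most abundant member in 5 mM K+, at 40.9 FPKM, and had 28.7 FPKM in 60 mM K+. Dlk1, a membrane protein with EGF-like repeats that restrains fat cell differentiation (110691033 to 110701546, plus strand), had 3 reads in 5 mM K+ and 14 in 60 mM K+. The ratio was 5.01 and the log2(fold-change) 2.32, with an interval of 0.48 to 4.76. The 2 genes, 77.7 kb apart, thus lay on opposite sides of 0, with Dlk1 resting on 17 reads in all.

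Other genes of this cluster added little. Rtl1, a paternally expressed gene derived from a retrotransposon, had 5 and 0 reads, Dio3, which inactivates thyroid hormone, had 2 and 7, and Begain had 7 and 2. The microRNA genes Mir770 and Mir1906-1 inside Meg3 had 0 reads in both libraries, and the maternally expressed noncoding RNAs Rian and Mirg were not analysed here.

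Plagl1 (Zac1), a paternally expressed zinc finger transcription factor that restrains the cell cycle, lies on chromosome 10 (12810497 to 12851500, plus strand). It had 313 reads in 5 mM K+ and 422 in 60 mM K+, a log2(fold-change) of 0.53 (0.32 to 0.75), or 1.45-fold higher. Its level was 30.5 and 38.1 FPKM, the highest of the members in 60 mM K+ by the deposited FPKM and below Cdkn1c with exon-union lengths. Mest, a paternally expressed gene for a protein of the alpha/beta hydrolase family on chromosome 6 (30673547 to 30698457, plus strand), had 40 and 26 reads (-0.52, interval -1.29 to 0.23), and a difference was not detectable at this depth. Copg2, a coat protein gene that overlaps Mest on the other strand, had 345 and 261 reads (-0.30, interval -0.54 to -0.06), and reads of the overlapping pair cannot be told apart by strand. Klf14, of the same cluster, had 2 and 0.

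By size of change, 3 members lay below -1, namely Peg3, Zim1 and Igf2, against 5.86% of the 14829 genes with at least 10 reads, and 1, Dlk1, lay above 1, against 5.54%. Because Peg3 was picked for its own value, that count holds at most 2 genes outside the choice. By interval, 4 members lay below 0 (Peg3, Zim1, Igf2 and Meg3), against 20.3% of all genes, and 3 lay above (Cdkn1c, Dlk1 and Plagl1), against 25.0%. Peg3 is among those 4 by choice here too. H19 and Mest held 0. The median of the 9 members with 10 reads was -0.52, or -0.41 without Peg3, and that of all genes was -0.0047.

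Depth bears on how these values read. Of the 10 members, 6 had fewer than 100 reads over both libraries. Among the 6549 genes with 500 reads or more, 8 lay below -1 (0.122%), and 1 of the 3 members at that depth did so, which was Peg3. Nothing is read from that count, since it is the value for which Peg3 was picked. Among the 1119 genes with 40 to 80 reads, 129 lay below -1 (11.5%), and Zim1 and Igf2 were 2 of the 3 members at that depth. Members of each parental copy lay on both sides of 0, and with so few genes nothing is read from the split. Of the 5 paternally expressed members with 10 reads, 2 lay below 0, 2 above and 1 held 0, and 1 of those below was Peg3, picked for its value. Of the 4 maternally expressed members 2 lay below, 1 above and 1 held 0. The shares of all genes were 20.3% below and 25.0% above.

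An interval for counting error leaves out the spread between arteries. If the true spread between libraries had a coefficient of variation of 0.2, a value assumed here and not measured, 2 members would lie below 0 (Peg3 and Zim1) and 1 above (Dlk1), and 3.27% and 4.65% of all genes would do so. At 0.4, Zim1 alone would lie below 0 and no member above, beside 0.782% and 1.3% of all genes. The Peg3 interval would then run from -2.70 to 0.53.

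**Figure D4:**
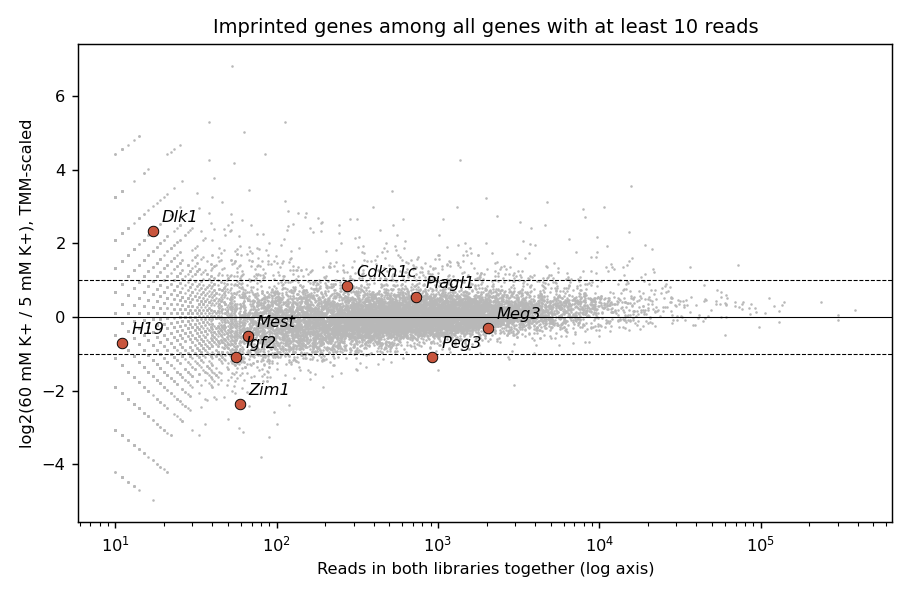
Log2(60 mM K+/5 mM K+) against reads over both libraries on a log axis for all genes with 10 reads (grey), with the members marked and the lines at -1 and 1 drawn. Zim1, Igf2 and Dlk1 lie past the lines at low read counts, where the spread of all genes is wide, and Peg3, picked for its value, lies just below -1.

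In level, the members ran in 5 mM K+ from Meg3, Plagl1, Peg3, Cdkn1c and Mest at the top to Igf2, Zim1, H19, Dlk1 and Usp29. The counting intervals of neighbours in that order did not overlap down to Igf2, and overlapped for the last 4 pairs. In 60 mM K+ the order was Plagl1, Meg3, Cdkn1c, Peg3, Mest, Igf2, Dlk1, H19, Zim1 and Usp29. By the deposited FPKM Peg3 and Cdkn1c changed places, from 14.0 and 8.69 FPKM in 5 mM K+ to 5.71 and 13.4 in 60 mM K+. The order depends on gene length: the deposited FPKM divides Peg3 by 4.37 kb, Meg3 by 2.70 kb and Plagl1 by 0.980 kb, while the union of exons in the mm9 annotation is 13.3, 18.1 and 7.29 kb. With union lengths the order in 5 mM K+ became Meg3, Cdkn1c, Peg3, Plagl1, Zim1, Mest, Igf2, H19, Dlk1 and Usp29. Only 1 pair of neighbours in that order, Plagl1 and Zim1, had intervals apart, and they were not neighbours by the deposited FPKM. In 60 mM K+ the order became Cdkn1c, Plagl1, Meg3, Peg3, Mest, Igf2, Dlk1, Zim1, H19 and Usp29. Cdkn1c then stood above Peg3 in both libraries, by 7.80 against 1.88 FPKM in 60 mM K+, while in 5 mM K+ their intervals overlapped. Length cancels out of a gene's own fold-change.

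Imprinted genes outside the 10 were taken from a list of 73, of which 64 were in the table and 50 reached 10 reads. The list is not limited to genes imprinted in artery, and whether each is imprinted there was not measured. Of these 50, 15 lay below 0, 13 above and 22 held 0, with a median of -0.06 by TMM scaling. The shares of all genes were 20.3% below 0 and 25.0% above. Below 0 were Ppp1r9a, which encodes a neuronal actin-binding protein (340 reads in 5 mM K+, 186 in 60 mM K+, -0.77), Ube3a, a ubiquitin ligase gene (481 and 302, -0.57), Qpct (122 and 76, -0.58) and Htr2a, a serotonin receptor gene (93 and 47, -0.88). Above 0 were Impact, a regulator of translation (919 and 1260, 0.56), Gnas, which encodes the stimulatory G protein subunit (207 and 276, 0.52), Nap1l5 (166 and 239, 0.63), Ampd3, an AMP deaminase gene (70 and 112, 0.78), and Zdbf2 (39 and 88, 1.28). Dcn, which encodes the matrix proteoglycan decorin and is imprinted in placenta, was the most abundant, with 15129 and 13424 reads (-0.07).

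The other imprinted genes were thus spread over both directions, with 3 below -1 (Xlr3b, Snrpn and Mkrn3) and 3 above 1 (Slc22a18, Zdbf2 and Kcnq1). The shares of all genes were 5.86% and 5.54%, so nothing particular to imprinted genes is read from these counts. Of these 6, Zdbf2 had the most reads, and Snrpn (16 and 4) and Mkrn3 (10 and 2) were low.

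**Figure D5:**
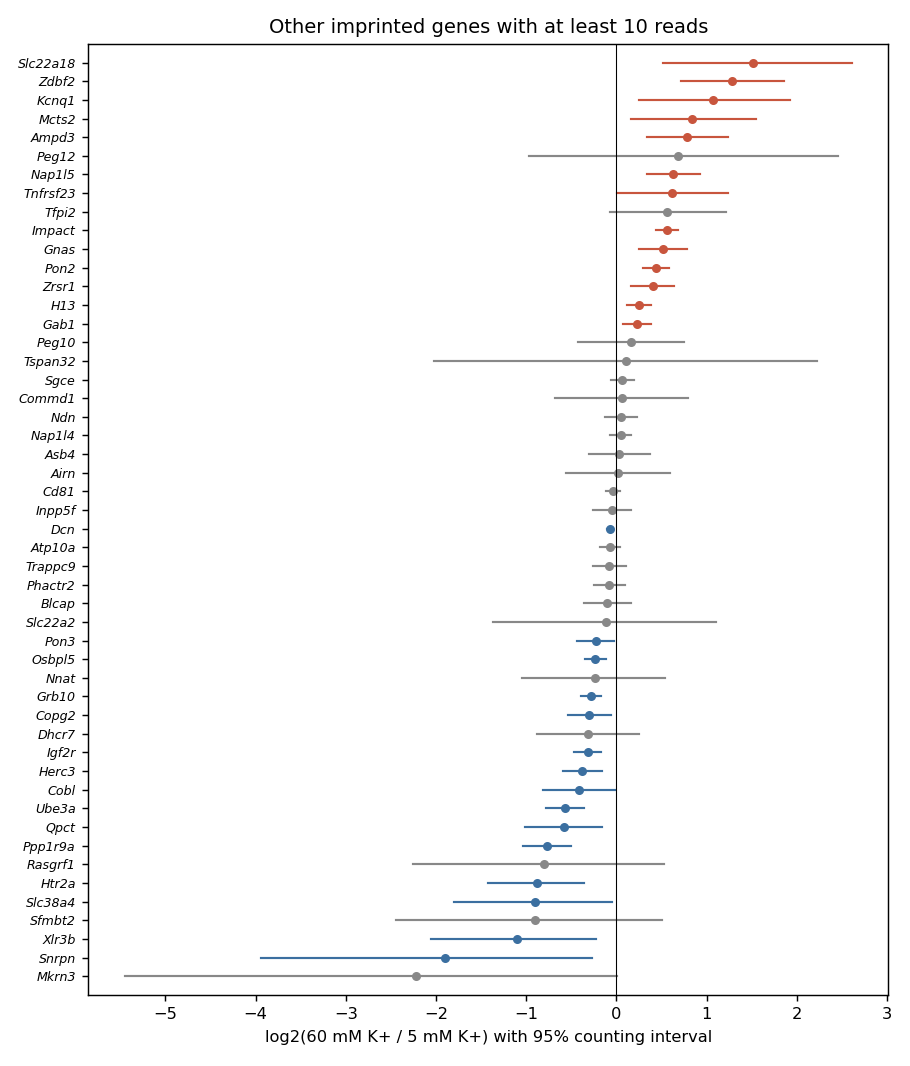
Log2(60 mM K+/5 mM K+) with 95% counting intervals for the 50 other imprinted genes with 10 reads, ordered by value. Blue marks the 15 genes whose interval lies below 0, red the 13 above, and grey the 22 that hold 0.

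Igf2 acts through the receptors Igf1r and Insr and is cleared by Igf2r, which is itself imprinted. Of 22 genes of this pathway in the table, 19 reached 10 reads, and 7 lay below 0, 6 above and 6 held 0. The shares of all genes were 20.3% below 0 and 25.0% above. Among ligands, Igf1 had 707 reads in 5 mM K+ and 432 in 60 mM K+ (-0.61, interval -0.79 to -0.43), so Igf1 and Igf2 were both lower. The receptors, named here after their values were seen, differed less: Igf1r had 1560 and 1503 reads (0.05, holding 0) and Igf2r had 852 and 636 (-0.32). The adaptors lay on opposite sides of 0, with Irs1 at 189 and 61 reads (-1.53, interval -1.97 to -1.11) and Irs2 at 3267 and 4387 (0.53). The binding proteins Igfbp2 (364 and 566, 0.74), Igfbp3 (130 and 190, 0.65) and Igfbp7 (23279 and 29515, 0.44), the most abundant of the pathway, were higher. Other binding proteins, named after their values were seen, went both ways, with Igfbp5 lower (8782 and 6397, -0.36, interval -0.40 to -0.31) and Igfbp4 (13517 and 17187, 0.45) and Igfbp6 (1738 and 1885, 0.22) higher. The median of the 19 genes was 0.03 by TMM and -0.18 when scaled by total counts, so no direction is given for the pathway.

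Genes that set or keep imprints were measured as a separate list. Of 22 in the table, 21 reached 10 reads, 7 lay below 0, 5 above and 9 held 0, with a median of -0.11. Of all genes, 20.3% lay below 0 and 25.0% above. Smchd1, which keeps silent copies silent, had 502 reads in 5 mM K+ and 944 in 60 mM K+ (1.01, interval 0.85 to 1.17) and was the only one past 1 in either direction. Zfp57, which guards methylated control regions, had 79 and 113 reads (0.62), and its partner Trim28, the most abundant of the list, had 1283 and 1377 (0.20). The DNA methyltransferase gene Dnmt3a had 872 and 568 (-0.52) and the chromatin remodeller gene Atrx had 1296 and 852 (-0.50).

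Markers of other cells differed between the libraries, and their part in the members' values was not tested. Of 9 adipocyte markers with 10 reads, 4 lay below 0 and 2 above, and their summed level was 199 CPM in 5 mM K+ and 154 in 60 mM K+. Adipoq had 97 and 44 reads, Plin1 had 101 and 18, and Cfd had 607 and 270, the same direction as Peg3. The list was not uniform: Fabp4, with the most reads, had 1060 and 951 (-0.06, holding 0), Cidea had 65 and 94 and Lep had 1 and 9, and the median of the 9 was -0.06. Fibroblast markers summed to 12960 and 12110 CPM, with 7 of 10 below 0 and 3 above. Endothelial markers summed to 3442 and 4759, with 8 of 10 above 0 and 1 below, the same direction as Cdkn1c and Plagl1. That direction was not particular to them, since 7 of 10 smooth muscle markers lay above 0 and 3 below. Red cell markers summed to 80.6 and 51.2, with 4 of 5 below 0 and 0 above, also the direction of Peg3. Macrophage markers summed to 58.7 and 54.5, and nerve markers to 207 and 190. The shares of all genes were 20.3% below 0 and 25.0% above. Pancreas markers were higher in 60 mM K+, at 166 and 520 reads in all. Mesothelial markers had 23 and 24 reads in all, of which Krt18 had 19 and 18, and Msln and Upk3b had 0 in both libraries.

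Among 4096 genes with at least 1000 reads, the 5 whose fold-change was nearest to that of Peg3 were Dbp, Slc7a2, Scd1, Fbn1 and Sema5a. Dbp, a transcription factor gene under circadian control, had 1900 reads in 5 mM K+ and 828 in 60 mM K+ (-1.10), and Fbn1, which encodes the matrix protein fibrillin-1, had 2660 and 1267 (-0.97). Likeness here is the distance between 2 fold-changes from a single pair of libraries. Of the other members only Meg3 (2035 reads) reached 1000 reads, so the lack of members among the 5 mainly follows from that limit. Igf2 (-1.10), with 56 reads, was also close to Peg3 (-1.08).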

How the data were processed

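Poly-T selected RNA was sequenced from 1 library per condition, with no strand information. The authors aligned reads to mm9 with TopHat2 2.0.12 and counted them with HTSeq 0.6.1, per the submitters' processing notes, and the gene annotation is not given in the sources used here. The deposited files hold raw read counts and FPKM per gene, and FPKM was scaled by total counts. From the counts, TMM factors (edgeR) of 1.075 and 0.930 were computed, and log2 ratios received 95% Clopper-Pearson intervals. Genes needed 10 reads over both libraries. Intervals cover counting error only. Poisson intervals were used for FPKM. Gene positions are from the mm9 GENCODE annotation and promoters from RefSeq GRCm38.p6, and no coordinate was converted.

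The members and gene lists were chosen with earlier results of these data known. Named genes were all members, listed neighbours in their clusters, and, in each list, the most abundant gene and those with at least 100 reads, an interval off 0 and an absolute log2 value over 0.5, plus genes overlapping a member and the 5 nearest to Peg3 in fold-change. Alternatives were total-count scaling, FPKM with a pseudocount, other filters, removal of a length trend and assumed library spreads.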

Additional observations from a re-analysis of the deposited data

How the results depend on the processing

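No paired analysis was possible because there was only 1 library at each K+ concentration. The fitted value of each of the 9 members with 10 reads kept its sign in every alternative run, and Peg3 ranged from -1.29 to -0.97. With FPKM and a pseudocount of 1, 1 member lay below -1 instead of 3, since the pseudocount shrinks low genes. With the length trend removed it was 2, and the member lost was Peg3, at -0.97. Members with an interval below 0 numbered 4, and 2 and 1 at an assumed coefficient of variation of 0.2 and 0.4, and those above 0 numbered 3, and 1 and 0. Scaling by total counts lowered every value by 0.21. The median of the IGF genes, 0.03, became -0.18 with total counts, and -0.16 with FPKM and a pseudocount of 0.1 or 1. That of the genes that set imprints, -0.11, became -0.32 with total counts and -0.31 with FPKM and a pseudocount of 0.1. With exon-union lengths, an alternative chosen after seeing the data, 1 pair of neighbours in level in 5 mM K+ had intervals apart instead of 5.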
